A study of Mus musculus with 8 samples.

Results

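Enteric neuron genes were examined in bulk RNA sequencing of colon biopsies from hematopoietic chimeric mice. The list held 39 genes that code for pan-neuronal proteins, lineage factors, synaptic proteins, transmitter enzymes and transporters, neuropeptides and calcium-binding proteins. A gene entered the tests when its normalized count averaged at least 10 over the 8 libraries, a minimum that 37 of the 39 genes reached, among 19127 such genes of 26008 in the deposited table. A normalized count is the number of reads counted on a gene, divided by a size factor of the library. *Ecel1*, a neuronal endopeptidase, and *Calb1*, the calcium-binding protein calbindin, did not reach the minimum, with at most 14.5 and 10.2 normalized counts in a library.

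The biopsies were those of 4 *penk*-/- and of 4 *penk*+/+ chimeras, each sequenced as a library of its own. *Penk* codes for proenkephalin, the precursor of the enkephalin opioid peptides. Recipients were male wild-type C57BL/6JRj mice, irradiated at 7 weeks of age and grafted with bone marrow of male donors aged 9 to 11 weeks. The donors were either *penk*-/- (a congenic B6.129 knockout strain) or wild-type, and colon was taken 18 weeks after grafting. Irradiation and grafting were thus common to all mice, and the deletion concerned blood-derived cells, whereas the neurons of the colon remained those of the recipient and kept *Penk*. *Penk* itself, at 453 to 616 normalized counts in *penk*-/- and 473 to 636 in *penk*+/+ chimeras, did not separate the genotypes in whole colon. The question was whether the loss of enkephalins in hematopoietic cells went with a different level of neuronal mRNAs in the gut wall.

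The enteric nervous system is a network of neurons and glia in the wall of the gut, arranged in a myenteric plexus between the muscle layers and a submucosal plexus beneath the mucosa. Excitatory motor neurons release acetylcholine and tachykinins and contract the muscle. Inhibitory motor neurons release nitric oxide and vasoactive intestinal peptide and relax it. Interneurons, sensory neurons and secretomotor neurons complete the circuits, and their precursors reach the gut from the neural crest under the control of the RET receptor and of factors such as HAND2. In RNA of whole biopsies, fewer neurons and less RNA per neuron cannot be told apart.

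The defining neuronal markers were present in every library. The lowest value of *Uchl1* was 286 normalized counts, that of *Elavl4* 248 and that of *Ret* 450. The biopsies also held muscle and mucosa. The summed count of 10 smooth muscle genes ranged from 172941 to 289410 in *penk*-/- and from 182235 to 281518 in *penk*+/+ chimeras. That of 10 epithelial genes ranged from 414592 to 568932 and from 515160 to 619760, with the lowest sum in *penk*-/- replicate 3. Reads counted on genes amounted to between 33.1 M and 50.7 M per library.

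A pair of libraries stood apart. Normalized counts of *Pbsn*, the gene for probasin, which is secreted by the prostate, were 105658 in *penk*-/- replicate 3 and 111024 in *penk*+/+ replicate 4, against 0 to 13425 in the 6 other libraries. Each genotype held 1 such library, and the comparison is given with all 8 libraries and with the 6 libraries that remain without this pair.

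RefSeq promoter sequences (build GRCm38.p6, 250 bases before to 50 after the start) were available for 28 of the 39 genes. Those of *Hand2*, the gene with the smallest *p*, of *Npy*, which varied most between libraries, and of *Scg2*, which like *Syn1* and *Cartpt* carried 2 of the 3 motifs searched, are shown 5′ to 3′ on the strand of the gene, with motif matches in capitals. They lie at chr8:57320733-57321032 (plus strand), chr6:49822460-49822759 (plus strand) and chr1:79439977-79440276 (minus strand).
Hand2: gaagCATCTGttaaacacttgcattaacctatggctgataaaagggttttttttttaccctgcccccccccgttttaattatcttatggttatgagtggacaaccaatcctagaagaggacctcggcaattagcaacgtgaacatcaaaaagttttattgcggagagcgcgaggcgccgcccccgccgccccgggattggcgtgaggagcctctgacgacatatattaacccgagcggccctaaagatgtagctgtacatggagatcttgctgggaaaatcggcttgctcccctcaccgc
Npy: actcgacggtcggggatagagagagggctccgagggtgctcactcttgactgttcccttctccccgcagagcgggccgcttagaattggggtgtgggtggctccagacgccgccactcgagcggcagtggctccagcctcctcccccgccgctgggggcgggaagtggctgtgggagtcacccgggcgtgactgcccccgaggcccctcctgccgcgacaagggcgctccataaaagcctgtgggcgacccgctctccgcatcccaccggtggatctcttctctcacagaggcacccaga
Scg2: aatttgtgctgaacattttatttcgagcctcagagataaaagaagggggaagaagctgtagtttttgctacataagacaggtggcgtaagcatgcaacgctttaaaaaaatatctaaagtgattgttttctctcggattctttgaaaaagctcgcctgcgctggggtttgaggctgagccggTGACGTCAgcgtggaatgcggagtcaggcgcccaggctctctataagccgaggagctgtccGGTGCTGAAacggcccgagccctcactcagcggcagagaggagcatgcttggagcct
Searched on both strands, the cAMP response element TGACGTCA was found in 3 of the 28 promoters (*Cartpt*, *Scg2* and *Syn1*), against 2.03% of 27025 promoters. The left part of the RE1 element bound by the neuronal repressor REST, TTCAGCACC, was found in 2 of 28 (*Scg2* and *Syn1*), against 0.433% of all promoters. In *Scg2* it reads as its reverse complement, GGTGCTGAA. The E-box letters CATCTG were found in 9 of 28, against 19.2% of all promoters, and the match in *Hand2* is the one shown in capitals. The *Npy* window held none of these letters. No match overlapped another in the sequences shown, and a match of letters describes the sequence and is not a binding site.

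None of the 37 genes differed between the genotypes at an adjusted *p* below 0.05. The smallest adjusted *p* of these genes was 0.453 (limma on log2(normalized count + 1), two-sided, Benjamini-Hochberg over 19127 genes), and the share of all genes past this threshold was 0%. The fitted log2 difference, on which lower and higher rest throughout, was below 0 for *penk*-/- against *penk*+/+ chimeras in 21 of the 37 genes and above 0 in 16. Their median log2 fold change was -0.05, against 0.00512 over all genes tested, with a range from -0.43 for *Gal* to 0.59 for *Npy*. A single gene, *Hand2*, had an unadjusted *p* below 0.05, and it was lower in *penk*-/- chimeras. Among all genes, 5.33% were lower and 4.30% higher at this threshold, so that 1 of 37 is not above the background. In no gene of the list did all 4 mice of a genotype lie beyond all 4 of the other, whereas 5.63% of all genes did so.

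**Figure D1:**
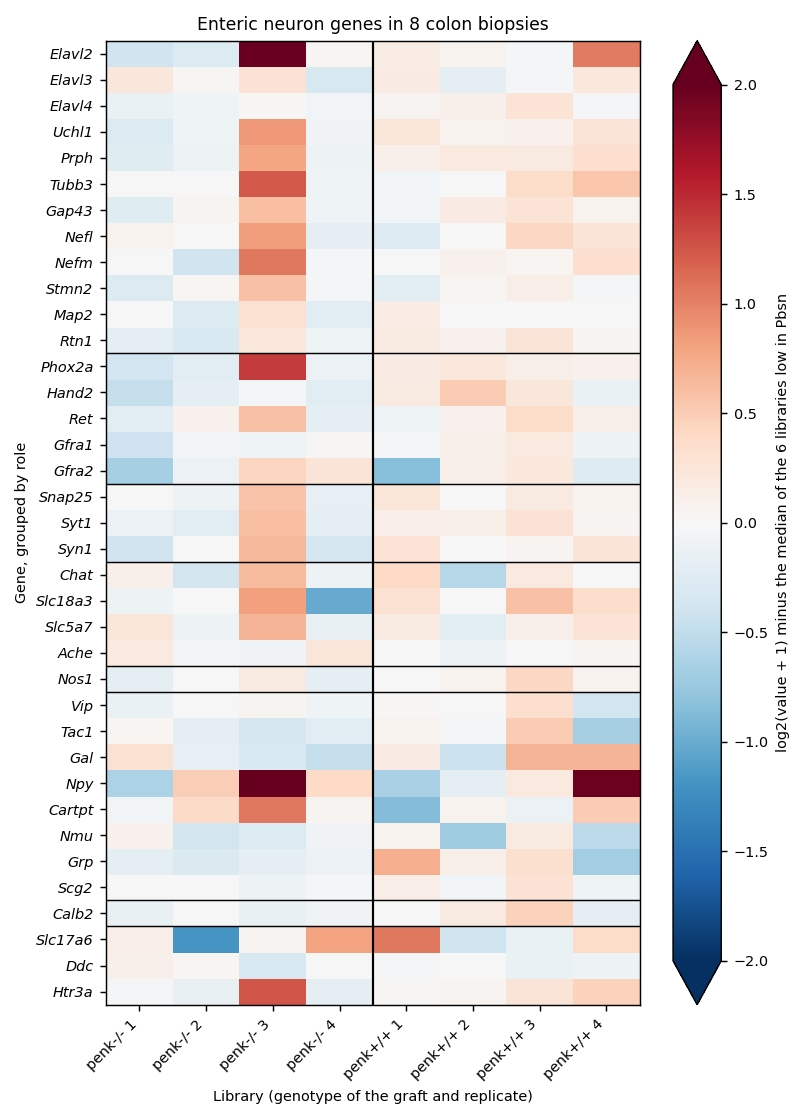
Each cell shows log2(normalized count + 1) of a gene in a library minus the median of that gene in the 6 libraries low in *Pbsn*, for the 37 genes tested (rows, grouped by role) and the 8 libraries (columns). The column of *penk*-/- replicate 3 is the highest of the 8 in 22 genes, and colors end at a difference of 2 in either direction.

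The counts changed when the libraries rich in *Pbsn* were left out. In the 6 other libraries, *penk*-/- chimeras were lower in 31 of the 37 genes and higher in 6 by the fitted log2 difference, with a median log2 fold change of -0.23 against 0.00482 over 19066 genes tested. Unadjusted *p*-values below 0.05 were obtained for 8 genes, *Prph*, *Uchl1*, *Rtn1*, *Hand2*, *Snap25*, *Syt1*, *Nos1* and *Grp*, all lower, that is 21.6% of the list against 4.70% of all genes lower and 4.36% higher at this threshold. In 15 genes (40.5% of the list) all 3 *penk*-/- values were below all 3 *penk*+/+ values, against 7.62% of all genes, and in 0 genes were they above, against 7.75%. No adjusted *p* was below 0.05 (smallest of the list 0.404, limma), and with 3 against 3 mice an exact permutation test of a single gene cannot give a *p* below 0.1. The genes were measured in the same biopsies and are not independent of each other.

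These counts depended more on *penk*-/- replicate 3 than on *penk*+/+ replicate 4. Without the former alone, 10 of the 37 genes were lower in *penk*-/- chimeras at an unadjusted *p* below 0.05 (4.15% of all genes) and 13 were lower without overlap (4.29% of all genes). Without *penk*+/+ replicate 4 alone, both counts were 4 (5.67% and 5.65% of all genes). In the 6 libraries, upper-quartile scaling gave 32 lower genes, 9 of them at an unadjusted *p* below 0.05 (5.74% of all genes), and quantile normalization 30 and 9 (5.36% of all genes). With the mean level of the smooth muscle genes as a covariate, these counts were 31 and 12 (7.11% of all genes). These 3 settings were added after the values were seen.

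**Figure D2:**
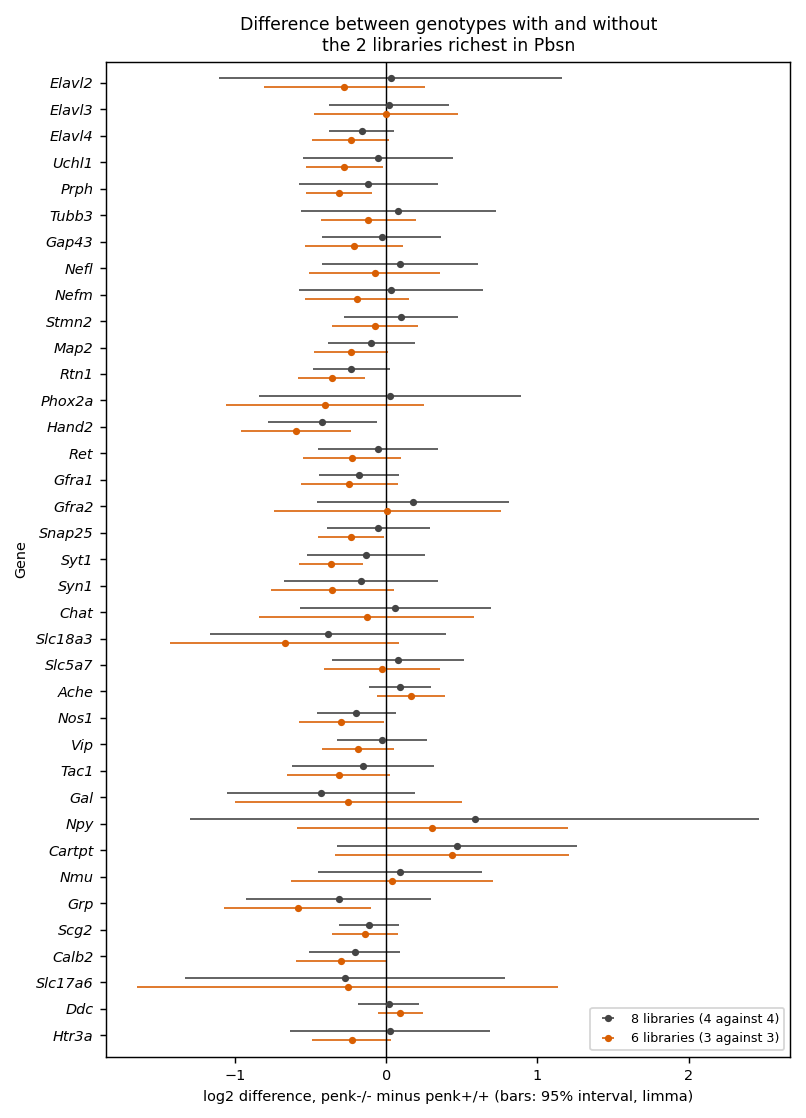
Log2 difference between *penk*-/- and *penk*+/+ chimeras (x axis) for the 37 genes (y axis), in all 8 libraries (gray) and in the 6 libraries low in *Pbsn* (orange), with 95% intervals from limma. Most orange points lie left of 0, the widest interval in gray is that of *Npy*, and the gray interval of *Hand2* ends below 0.

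Among the pan-neuronal genes, 6 of the 12 tested were lower and 6 higher in *penk*-/- chimeras by the fitted log2 difference, and 0 had an unadjusted *p* below 0.05. All 12 were lower in the 6 libraries, by a log2 of between -0.36 for *Rtn1* and -0.00131 for *Elavl3*. There, 3 had an unadjusted *p* below 0.05, against 4.70% of all genes lower at this threshold. The genotypes did not overlap in 6, against 7.62% of all genes lower without overlap.

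*Stmn2*, a regulator of microtubules in growing axons, had the highest mean count of these genes. It was at 625, 776, 1139 and 734 normalized counts in *penk*-/- replicates 1 to 4, and at 646, 777, 828 and 743 in *penk*+/+ replicates 1 to 4. The genotypes overlapped and replicate 3 of the *penk*-/- chimeras was far above the rest (818 ± 223 against 748 ± 76.7, SD, *n* = 4, log2 fold change 0.10, standard error 0.17).

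*Elavl4* codes for the neuronal RNA-binding protein HuD. In *penk*-/- chimeras it was at 248, 258, 277 and 264, and in *penk*+/+ chimeras at 284, 293, 331 and 268 normalized counts. Only *penk*-/- replicate 3 and *penk*+/+ replicate 4 crossed, and without them the genotypes did not overlap. The log2 fold change was -0.16 ± 0.10 (standard error, limma, adjusted *p* = 0.640), and in the 6 libraries -0.23 ± 0.11 (adjusted *p* = 0.576).

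*Rtn1*, a reticulon of the endoplasmic reticulum of neurons, showed the same arrangement. Its values were 487, 452, 646 and 526 in *penk*-/- and 629, 589, 662 and 580 in *penk*+/+ chimeras. Replicate 3 was the only *penk*-/- library within the *penk*+/+ range. The log2 fold change of -0.23 ± 0.11 (standard error, limma, unadjusted *p* = 0.0694, adjusted *p* = 0.555) became -0.36 ± 0.10 in the 6 libraries (unadjusted *p* = 0.00561, adjusted *p* = 0.419).

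The other pan-neuronal genes were more uneven between libraries. *Uchl1*, a ubiquitin hydrolase abundant in neurons, was at 286 to 331 in the 3 other *penk*-/- libraries, at 636 in replicate 3 and at 364 to 415 in *penk*+/+ chimeras. *Prph*, the intermediate filament peripherin, was at 347 to 382, at 714 and at 442 to 518 in the same order. Both were thus lowest in 3 *penk*-/- mice and highest in replicate 3 of that genotype. The neurofilament genes *Nefl* and *Nefm*, neuronal beta-tubulin *Tubb3*, the growth cone gene *Gap43* and the dendritic microtubule gene *Map2* were also highest in *penk*-/- replicate 3, as were the RNA-binding protein genes *Elavl2* and *Elavl3*. Over the 8 libraries *Tubb3* ranged from 278 to 697, *Nefl* from 158 to 339 and *Elavl3* from 69.6 to 108 normalized counts. *Gap43* was at 360 in *penk*-/- replicate 3, at up to 248 in the other *penk*-/- libraries and at 228 to 288 in *penk*+/+ chimeras. These 4 genes overlapped between the genotypes in the 6 libraries as well. *Nefm* was at 137 to 181 in 3 *penk*-/- libraries, at 378 in replicate 3 and at 183 to 230 in *penk*+/+ chimeras. *Map2* was at 363 to 434, at 542 and at 438 to 488 in the same order. Of these 9 genes, *Uchl1*, *Prph*, *Nefm* and *Map2* did not overlap in the 6 libraries, and the other 5 did. *Nefl* and *Nefm* overlap on opposite strands, and the strand setting of the counting is not given in the sources used here.

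The lineage factors and receptors of the GDNF family included the gene with the smallest *p* of the list. *Hand2* (ENSMUSG00000038193, GRCm39 chromosome 8, 57774011 to 57777677, plus strand), a basic helix-loop-helix factor required for the differentiation of enteric neurons, was at 111, 137, 151 and 133 normalized counts in *penk*-/- chimeras. In *penk*+/+ chimeras it was at 175, 222, 181 and 141. The overlap was confined to *penk*+/+ replicate 4, which lay below *penk*-/- replicate 3, the libraries of the *Pbsn* pair. The means were 133 ± 16.6 and 180 ± 32.8 (SD, *n* = 4), a log2 fold change of -0.42 with a standard error of 0.16 and a 95% interval from -0.78 to -0.06 (limma, unadjusted *p* = 0.0257, adjusted *p* = 0.453). An exact permutation test over the 70 assignments of 4 of the 8 mice gave a two-sided *p* of 0.0571, where the smallest possible is 0.0286. Over the 6 libraries low in *Pbsn* the log2 fold change was -0.60 ± 0.16 (standard error), without overlap. *Hand2* overlaps the long noncoding gene *Hand2os1* on the opposite strand.

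*Ret*, the receptor tyrosine kinase for GDNF-family ligands, was at 450, 561, 792 and 465 in *penk*-/- and at 497, 558, 680 and 573 in *penk*+/+ chimeras. Its range was wider in *penk*-/- chimeras on account of replicate 3, and the difference of -0.05 ± 0.18 (standard error, log2) was small beside it. The co-receptor genes *Gfra1* and *Gfra2* had log2 fold changes of -0.18 and 0.18, with overlap. *Phox2a*, a homeodomain factor of autonomic neurons, was at 9.09 to 11 in 3 *penk*-/- libraries, at 33.4 in replicate 3 and at 12.9 to 14.3 in *penk*+/+ chimeras.

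**Figure D3:**
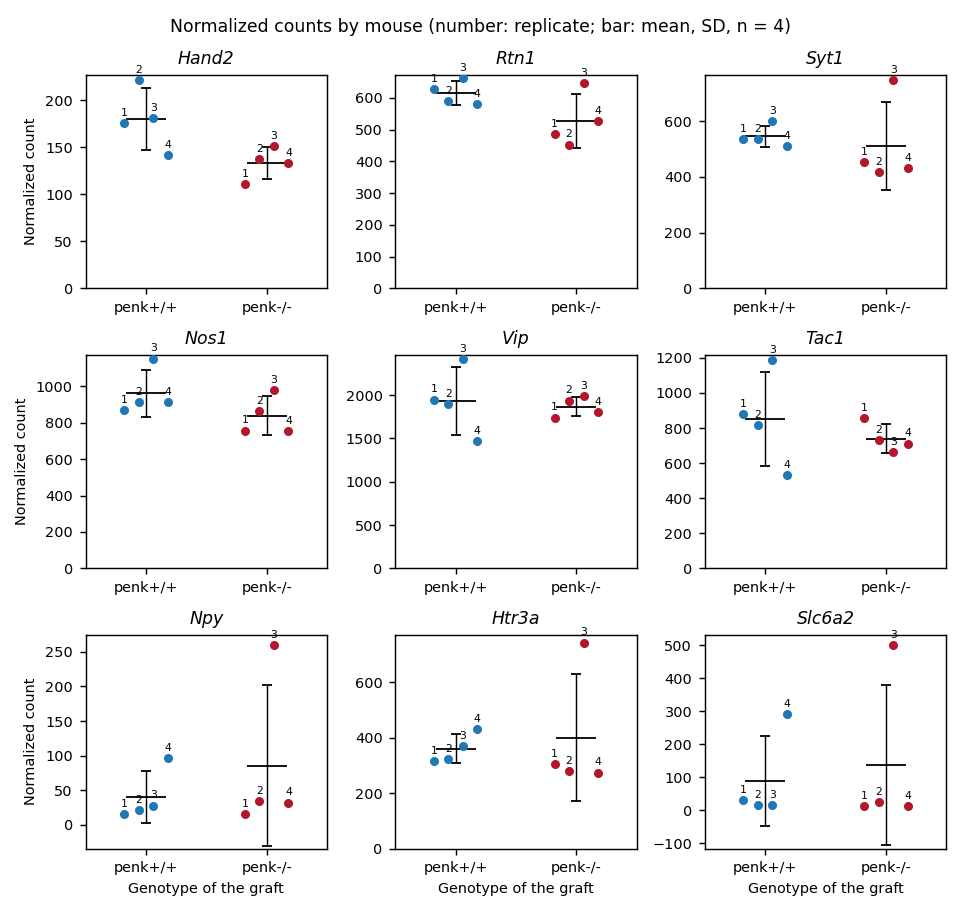
Normalized counts (y axis, linear) of 8 genes of the list and of the noradrenaline transporter gene *Slc6a2* by genotype of the graft (x axis), with 1 point per mouse labelled by its replicate number, and the mean and SD (*n* = 4). *Npy*, *Htr3a* and *Slc6a2* were highest in *penk*-/- replicate 3 and second in *penk*+/+ replicate 4, whereas *Tac1* was lowest in these libraries.

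The synaptic genes were lower in *penk*-/- chimeras in all 3 cases, none with a *p* below 0.05. *Snap25*, a SNARE protein of the presynaptic membrane, was at 769, 712, 1135 and 682 against 912, 764, 872 and 803 normalized counts (*penk*-/- and *penk*+/+ replicates 1 to 4). *Syt1*, the calcium sensor of vesicle release, was at 451, 418, 747 and 430 against 536, 535, 600 and 511. Apart from *penk*-/- replicate 3, which was the highest library for both genes, every *penk*-/- value of *Syt1* was below every *penk*+/+ value. In the 6 libraries the log2 fold change of *Syt1* was -0.36 ± 0.09 (standard error, limma, unadjusted *p* = 0.00436, adjusted *p* = 0.404), the smallest *p* of the list there. That of *Snap25* was -0.23 ± 0.09 (unadjusted *p* = 0.0395, adjusted *p* = 0.534, limma). *Syn1*, a vesicle phosphoprotein whose gene overlaps *Timp1* and *Araf* on the opposite strand, was at 84.8 to 112 in 3 *penk*-/- libraries, at 177 in replicate 3 and at 112 to 136 in *penk*+/+ chimeras.

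Of the cholinergic genes, 1 was lower and 3 higher in *penk*-/- chimeras, whereas in the 6 libraries 3 were lower and 1 higher. *Ache*, which codes for acetylcholinesterase and is also expressed outside neurons, was at 930, 778, 768 and 961 in *penk*-/- and at 803, 757, 816 and 836 in *penk*+/+ chimeras. The genotypes overlapped (log2 fold change 0.09, 95% interval -0.11 to 0.29). *Chat*, the synthetic enzyme of acetylcholine, was at 38.4, 27.5, 56.0 and 33.1 against 47.3, 23.8, 40.9 and 36.0, and its difference of 0.06 ± 0.28 (standard error, log2) was far smaller than its error. The choline transporter gene *Slc5a7* was at 178 to 315 and 170 to 239. The vesicular transporter gene *Slc18a3*, which lies within *Chat* on the same strand, was at 18.8 to 69.8 and 39 to 59.3. In the 6 libraries the log2 fold change of *Slc18a3* was -0.67 ± 0.33 (standard error, limma, adjusted *p* = 0.587). This was the lowest of the list there, and the genotypes did not overlap.

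*Nos1*, the neuronal nitric oxide synthase of inhibitory motor neurons, was at 756, 863, 980 and 754 normalized counts in *penk*-/- and at 867, 913, 1153 and 911 in *penk*+/+ chimeras. Only *penk*-/- replicate 3 lay within the range of *penk*+/+ chimeras, and *penk*+/+ replicate 3 was far above the other libraries of its genotype. The log2 fold change was -0.20, with a 95% interval from -0.46 to 0.06 (limma, unadjusted *p* = 0.122, adjusted *p* = 0.640). In the 6 libraries it was -0.30 ± 0.12 (standard error, unadjusted *p* = 0.0403, adjusted *p* = 0.537, limma), and the genotypes did not overlap.

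Neuropeptide and granin genes did not follow a single pattern, with 5 lower and 3 higher in *penk*-/- chimeras, and the same split in the 6 libraries. *Vip*, the peptide of inhibitory motor and secretomotor neurons, was at 1741, 1937, 1987 and 1806 in *penk*-/- and at 1948, 1896, 2420 and 1466 in *penk*+/+ chimeras. *Tac1*, the precursor of substance P in excitatory neurons, was at 856, 729, 663 and 712 against 880, 818, 1186 and 530. The highest and the lowest value of both genes were those of *penk*+/+ chimeras, and the genotypes overlapped widely. The log2 fold changes were -0.03 (95% interval -0.32 to 0.27) for *Vip* and -0.15 (-0.62 to 0.31) for *Tac1*.

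*Npy*, which codes for neuropeptide Y, was described in full because of its spread, a choice made after its values were seen. Its values were 15.1, 34.3, 260 and 32.0 in *penk*-/- and 14.9, 20.9, 27.6 and 96.0 in *penk*+/+ chimeras. The 2 libraries rich in *Pbsn* were 10.7 and 3.96 times the median of the 6 others, and the log2 fold change of 0.59 had a standard error of 0.84. *Cartpt*, the CART peptide precursor, was also highest in these libraries, at 40.7 and 27.4 against 9.96 to 25.2. The remaining peptides were not. *Gal* (galanin) ranged from 45.3 to 101, *Nmu* (neuromedin U) from 31.4 to 59.3, *Grp* (gastrin-releasing peptide) from 40.3 to 110 and *Scg2* (secretogranin II, a granin of dense-core vesicles) from 984 to 1297 over the 8 libraries. *Grp* was the only peptide gene with an unadjusted *p* below 0.05 in the 6 libraries, at 53.8 to 60.8 in *penk*-/- and 71.3 to 110 in *penk*+/+ libraries (difference of -0.59 ± 0.21 on the log2 scale, standard error, limma, adjusted *p* = 0.487).

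*Calb2* codes for calretinin, a calcium-binding protein of excitatory motor neurons, interneurons and other neurons. It was at 385, 426, 387 and 407 in *penk*-/- and at 431, 486, 591 and 372 in *penk*+/+ chimeras. Leaving *penk*+/+ replicate 4 aside, every *penk*+/+ value was above every *penk*-/- value. The log2 fold change was -0.21 ± 0.13 (standard error, limma, unadjusted *p* = 0.151, adjusted *p* = 0.660).

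*Ddc*, aromatic amino acid decarboxylase, had the highest count of the last group, and is known to be expressed in epithelial cells as well as in neurons. Its values were 5086, 4893, 3817 and 4762 in *penk*-/- and 4699, 4768, 4345 and 4448 in *penk*+/+ chimeras. The lowest was in *penk*-/- replicate 3, which also had the lowest sum of epithelial genes, and the log2 fold change was 0.02 (95% interval -0.19 to 0.22). *Htr3a*, a subunit of the ionotropic serotonin receptor, was at 274 to 305 in 3 *penk*-/- libraries, at 743 in replicate 3 and at 316 to 430 in *penk*+/+ chimeras. *Slc17a6*, the vesicular glutamate transporter 2 gene, was near the minimum, at 3.43 to 19.9 normalized counts.

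Levels of different genes were compared as normalized counts per kilobase of exon. *Ddc* (446) and *Scg2* (429) were the highest, followed by *Calb2* (230), *Vip* (219), *Prph* (213) and *Tac1* (173). *Nos1* was at 79.2 per kilobase, *Chat* at 6.10 and *Slc17a6* at 1.89. *Nos1* thus had a higher level per length than *Chat*, *Slc18a3* (18.7) and *Slc5a7* (33.1) in the mean of the 8 libraries. The cholinergic gene *Ache*, which is also expressed outside neurons, was at 159 and thus above *Nos1*. *Ddc* and *Scg2* overlapped each other in their libraries and lay above every other gene of the list, whereas neighbors such as *Calb2*, *Vip* and *Prph* overlapped.

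**Figure D4:**
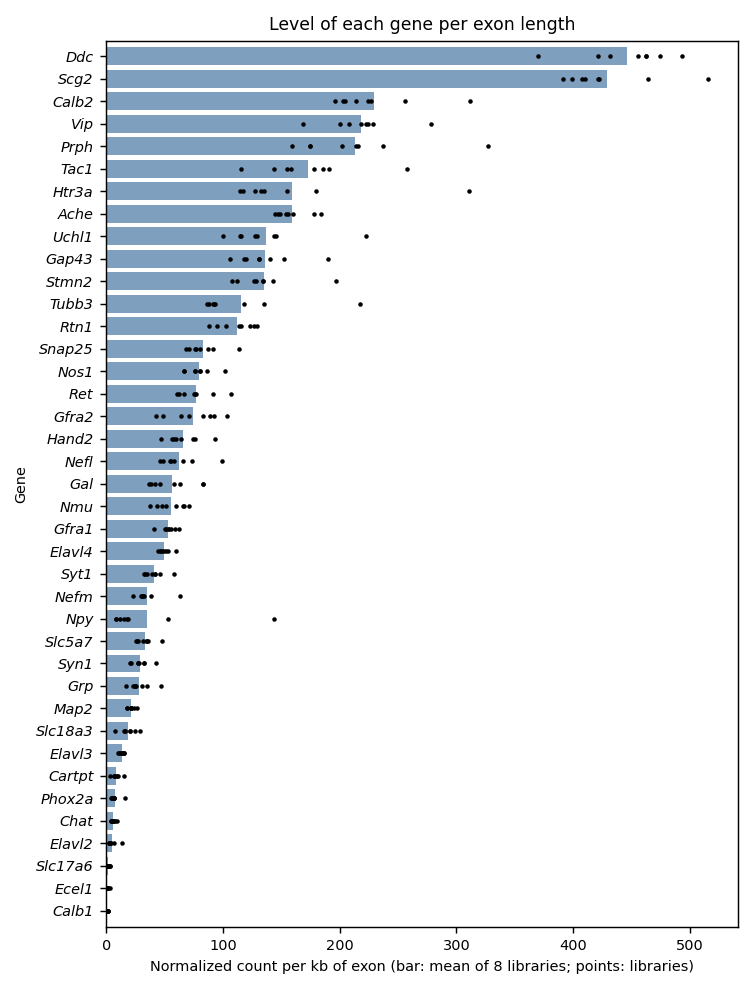
Normalized count per kilobase of exon (x axis, linear) for the 39 genes (y axis), as the mean of the 8 libraries (bars) and in each library (points). *Ddc* and *Scg2* overlap each other and lie above all others, and the libraries of neighboring genes overlap from *Calb2* downward.

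The balance between transmitters was compared within each library, so that the amount of neuronal tissue in the biopsy bore on both genes. The log2 difference between *Nos1* and *Chat* averaged 4.44 ± 0.35 for *penk*-/- mice and 4.70 ± 0.43 for *penk*+/+ mice (SD, *n* = 4, difference -0.26, exact permutation test, two-sided, *p* = 0.4). That between *Vip* and *Tac1* was 1.34 ± 0.23 and 1.21 ± 0.19 (difference 0.13, exact permutation test, two-sided, *p* = 0.457). Neither difference exceeded the spread between mice.

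**Figure D5:**
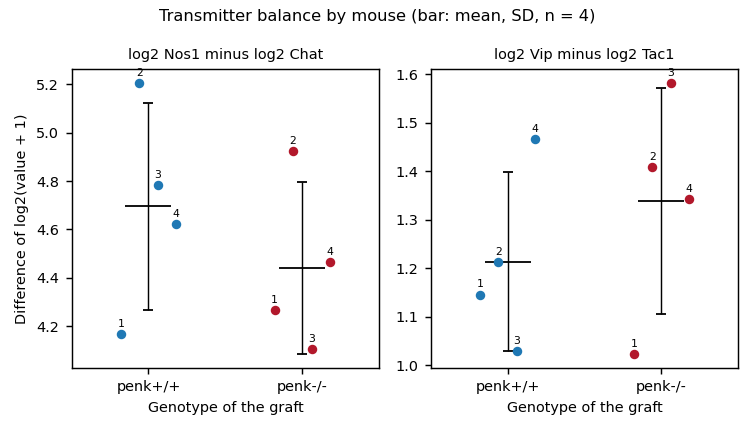
Difference between log2(normalized count + 1) of *Nos1* and *Chat* (left) and of *Vip* and *Tac1* (right) on the y axis, by genotype of the graft (x axis), with 1 point per mouse labelled by replicate and the mean and SD (*n* = 4). The y axes do not start at 0, and the genotypes overlap in both panels.

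The libraries rich in *Pbsn* differed from the others in some neuronal genes and not in others. In *penk*-/- replicate 3, 22 of the 37 genes (59.5%) were above all 6 libraries low in *Pbsn*, against 19.9% of all genes tested, and the median ratio to the median of these 6 was 1.48. In *penk*+/+ replicate 4 this held for 9 genes (24.3%), against 17.4% of all genes, with a median ratio of 1.05. Those 9 genes, *Elavl2*, *Uchl1*, *Prph*, *Tubb3*, *Nefm*, *Slc5a7*, *Npy*, *Cartpt* and *Htr3a*, were above the 6 in both libraries, as were 8.0% of all genes. *Elavl2*, shown for its spread after its values were seen, was at 134 and 69.5, against 25.2 to 37.3 in the 6. In contrast, *Tac1* and *Scg2* were below the 6 in both libraries, *Ddc* in the first, and *Vip*, *Grp* and *Calb2* in the second.

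Markers of noradrenergic neurons, which reach the gut and other pelvic organs from sympathetic ganglia, moved with this pattern in part. Of 4 listed genes, the transporter gene *Slc6a2* was at 502 and 292 normalized counts in *penk*-/- replicate 3 and *penk*+/+ replicate 4, against 12.2 to 31.1 in the 6 others, and tyrosine hydroxylase *Th* at 70.5 and 43.7, against 0 to 7.47. *Dbh* and *Slc18a2* did not set the pair apart, at 150 and 97.8 against 67.7 to 144 and at 336 and 279 against 275 to 337. The summed count of the 4 genes was 1058 and 713, against 385 to 450. The sensory peptide gene *Calca* was at 0 to 5.71 in all libraries. The part of these other neurons in the values of the list was not tested.

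Another 45 neuronal genes, not in the list, were read in the same fit. They included *Etv1*, which is also a marker of interstitial cells of Cajal. Their log2 difference was below 0 in 34 and above 0 in 11, with a median log2 fold change of -0.10 and an adjusted *p* below 0.05 in 0. Only the N-type calcium channel gene *Cacna1b* had an unadjusted *p* below 0.05 (log2 fold change -0.21, unadjusted *p* = 0.0396, adjusted *p* = 0.492, limma). Among all genes, 5.33% were lower at this threshold. The values of *Cacna1b* were 600 to 735 in *penk*-/- and 701 to 848 in *penk*+/+ chimeras. In the 6 libraries 34 were again lower, and the median over the 45 was -0.17. Of the lower genes, 5 had an unadjusted *p* below 0.05, against 4.70% of all genes. The genotypes did not overlap in 8 lower genes, against 7.62% of all genes. They also did not overlap in 1 higher gene, the adhesion molecule gene *L1cam*, against 7.75% of all genes. *Etv1* was among the 5 and among the 8. The homeobox gene *Tlx2*, one of the 8, was at 4.04 to 13.3 in *penk*-/- and 18.4 to 23.8 in *penk*+/+ libraries.

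Genes of enteric glia, the supporting cells of the plexuses, were listed as a comparison. Of the 10, 6 were lower and 4 higher, with a median log2 fold change of -0.02. *Sox10*, a glial transcription factor, was at 102 to 193 in *penk*-/- and 97.1 to 127 in *penk*+/+ chimeras (log2 fold change 0.36, adjusted *p* = 0.608, limma), and *Gfap* at 164 to 273 and 217 to 256 (-0.26, adjusted *p* = 0.650, limma). *Erbb3* was the only gene of this list with an unadjusted *p* below 0.05 (log2 fold change -0.57, unadjusted *p* = 0.00495, adjusted *p* = 0.351, limma). It is also expressed by the gut epithelium, and its genotypes did not overlap over the 8 libraries, at 11933 to 19396 normalized counts in *penk*-/- and 21279 to 28138 in *penk*+/+ chimeras, as in 5.63% of all genes. In the 6 libraries the sums of smooth muscle genes overlapped between the genotypes, and the median log2 fold change of the muscle genes was -0.03, that of the glial genes -0.12 and that of the epithelial genes -0.08, beside -0.23 for the enteric neuron genes.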

How the data were processed

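Total RNA of frozen colon biopsies was sequenced as stranded, paired-end poly-A libraries. Per the labels, the authors used FastQC, STAR 2.7.8a and DESeq2 1.30.0 on GRCm39. They deposited normalized counts for 26008 genes (a signal, neither raw counts nor logs), which are read counts divided by a size factor per library, and in every library all values (100%) are integer multiples of the value of a single read (tolerance 0.01 reads). Gene names were assigned to 25776 identifiers with GENCODE M39.

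Genes with a mean of at least 10 were compared with limma 3.58.1 (trend) in R 4.3.3 on log2(value + 1), without covariates, 4 against 4 mice, two-sided, with Benjamini-Hochberg adjustment over 19127 genes. A fold change on this scale understates changes of low genes. Ratios were compared by exact permutation. Figures used Python 3.11.15 and matplotlib 3.10.9. *Scn10a* and *Mrgprd*, listed as sensory neuron genes, were not found among the named genes and could not be read. Some genes of the comparison lists are not reported here.

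Members and lists were chosen with earlier results of these data known. All members past the minimum were named, and values per mouse were given for the highest member of each role, genes of the ratios, genes with *p* below 0.05 or without overlap in all 8 libraries, and the 5 smallest *p* there, and other genes by range. *Syt1*, with the smallest *p* in the 6 libraries, and *Npy* were given per mouse outside these rules. Alternatives were pseudocounts, filters, scalings, covariates and omitted libraries.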

Additional observations from a re-analysis of the deposited data

Results flagged for a closer look

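In 12 of 78 groups of 4 mice (39 genes, 2 genotypes), 1 library lay far from the other 3, judged by its gap to the nearest of them as a share of the whole range of the group. Chance alone would give about 3.9 of 78. In 8 of the 12 the far library was the highest one and *penk*-/- replicate 3: *Elavl2* (share 0.918), *Uchl1* (0.870), *Prph* (0.904), *Tubb3* (0.954), *Phox2a* (0.919), *Syt1* (0.898), *Npy* (0.922) and *Htr3a* (0.934). In *penk*+/+ chimeras, replicate 4 was far above the rest for *Elavl2* (0.874) and *Npy* (0.844). The other 2 cases were *Map2* in replicate 1 (0.900), at 488 against 438 to 443 normalized counts, and *Nos1* in replicate 3 (0.841), at 1153 against 867 to 913. The genes are not independent of each other, since they were measured in the same libraries.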

How the results depend on the processing

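In none of the 22 other settings did a gene of the list reach an adjusted *p* below 0.05. The log2 fold change of *Hand2* ranged from -0.61 to -0.32 and its adjusted *p* from 0.173 to 0.690 (limma). Leaving out both libraries rich in *Pbsn* gave 8 genes of the list with an unadjusted *p* below 0.05 (21.6%, against 9.06% of all genes). In 15 genes the genotypes did not overlap, all lower in *penk*-/- libraries (7.62% of all genes lower, 7.75% higher). Upper-quartile scaling gave 9 (24.3%, against 9.41% of all genes) and 15, and its share of all genes without overlap was not computed. Quantile normalization gave 9 (24.3%, against 9.88% of all genes) with an unadjusted *p* below 0.05. The smooth muscle covariate gave 12 (32.4% of the list, 14.1% of all genes), beside 1 of all genes with an adjusted *p* below 0.05. With all 8 libraries, the smooth muscle covariate gave 1 gene of all with an adjusted *p* below 0.05 and 3 of the list (8.11%) with an unadjusted one, where 11.8% of all genes had one, and quantile normalization 1 and 2 (5.41% of the list, 9.89% of all genes). Without each replicate in turn, these counts were 0 to 6 and 0 to 10 (0 to 27.0% of the list, 7.21 to 11.6% of all genes), and 0 to 13 genes of the list did not overlap (7.83 to 12.0% of all genes). The highest values were those without *penk*-/- replicate 3, where 7.85% of all genes had an unadjusted *p* below 0.05 and 8.74% did not overlap. The unadjusted *p* of *Hand2* was above 0.05 without *penk*-/- replicate 1, *penk*+/+ replicate 2 or *penk*+/+ replicate 3. The replicate block gave 1 gene with an adjusted *p* below 0.05 and 3 genes of the list (8.11%) with an unadjusted one, which 15.4% of all genes had. Mice with the same number did not deviate together (correlations 0.145, -0.0444, -0.321 and -0.162), none matched its own number best, and the numbers were not taken as pairs. Of 805 values of single genes, 749 moved by less than 1 standard error, and the other 56 all had a library left out. The causes were not tested. Count-based tests and TMM scaling on recovered reads were not run. Genes of low count, such as *Slc17a6* at 3.43 to 19.9 normalized counts, carry counting error beside the spread between mice.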
